A study of Mus musculus with 2 samples.

Results

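Mature migratory dendritic cells were taken from the droplet libraries of colonic lamina propria of mice with dextran sulfate sodium (DSS) colitis. A barcode entered the comparison as a cell when it held at least 1000 UMIs (unique molecular identifiers, each counting 1 captured RNA molecule), at least 500 genes and less than 5% of UMIs from mitochondrial genes. Members were chosen by their UMI counts of marker genes, so the levels of those genes are described here and not counted as findings. A cell was a member when Fscn1 and Ccl22 together had at least 5 UMIs and Cst3 or H2-Aa had at least 3. Members also had no Cd3e, at most 1 UMI of Cd79a, at most 2 UMIs over C1qa, C1qb and C1qc, and less than 1% of UMIs from Jchain. In all, 96 of 13923 cells were members (0.690%, exact Clopper-Pearson 95% interval 0.559 to 0.841%). The study compared wild-type C57BL/6 mice (WT) with C57BL/6 mice lacking Ring1A in the whole body (Ring1AKO), all aged 8 to 10 weeks and all given DSS. The study's methods name C57BL/6 J (B6) for the cross of the knockout mice. CD45+ 7-AAD- cells of the colon, with the epithelium removed before digestion, were sorted and pooled from 5 mice of each genotype into 1 library per genotype. With 1 library per group no difference between the genotypes could be tested, and mouse, cage, sort and library cannot be told apart from genotype. The WT library gave 74414511 UMIs and 6005 cells, of which 41 were members, and the Ring1AKO library gave 81862096 UMIs and 7918 cells, of which 55 were members. Members held a median of 12825 UMIs in WT and 11792 in Ring1AKO. In all, 11 cell barcodes occurred in both libraries and none of them was a member.

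Dendritic cells sample antigen in the intestinal wall, and after activation they mature, turn on the chemokine receptor Ccr7 and travel along lymph vessels to the draining lymph node. There they show peptide on major histocompatibility complex (MHC) molecules together with costimulatory ligands and cytokines to naive T cells. Maturation is known for actin remodelling through the bundling protein fascin (Fscn1), for chemokines such as Ccl22, which attracts Ccr4-bearing T cells, and for NF-kappaB signalling through Relb and Nfkb2. Conventional dendritic cells that have not matured fall into cDC1, marked by Xcr1 and Clec9a, and cDC2, marked by Sirpa and, in many tissues, Cd209a and Clec10a.

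Ring1, the gene that encodes Ring1A, had 4 UMIs in the 41 WT members and 8 UMIs in the 55 Ring1AKO members, or 6.47 and 12.1 CPM (UMIs of a gene per 1000000 UMIs of the summed cells). Over all cells the levels were 13.4 CPM in WT and 11.8 CPM in Ring1AKO. A count of 3′ ends does not show whether a deleted part of the gene is missing, so it checks neither label, and the libraries are called here as they were labelled.

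The 4 genes given as markers of these cells were Fscn1, Ccl22, Ccr7 and Tbc1d4, of which the first pair chose the members. Ccr7 (chromosome 11, bases 99144196 to 99155077 of GRCm38, minus strand) was not used by the rule. It had UMIs in 37 of 41 WT members and in 52 of 55 Ring1AKO members, and its level was 2959 CPM (exact Poisson 95% interval 2825 to 3098) and 4126 CPM (3973 to 4284). Tbc1d4, a Rab GTPase-activating protein, had UMIs in 38 and 50 members at 1108 CPM (1026 to 1194) and 1061 CPM (984 to 1143). Intervals of this kind cover counting error only, not the spread between cells or between mice. They take UMIs as independent, so they are too narrow where few cells hold most UMIs of a gene. The intervals of log2 ratios of gene levels given below have the same limit. After each cell was thinned to 4000 UMIs, Ccr7 had a UMI in 35 of 39 WT members and in 47 of 48 Ring1AKO members, which left out 2 and 7 shallower cells. At the same depth 19.1% of WT T cells and 22.3% of Ring1AKO T cells had a Ccr7 UMI, as had 4.76% and 21.4% of cDC1 and 34.1% and 63.6% of cDC2. Tbc1d4 had a UMI in 30 of these 39 WT members (76.9%) and 41 of 48 Ring1AKO members (85.4%), and in 33.3% and 37.5% of cDC1, 39.0% and 52.3% of cDC2 and 11.9% and 12.1% of T cells. Both genes were thus found in most members at equal depth and also in a share of cDC2 above that of T cells. The Ccr7 shares of cDC1 depended on the depth used. They were 10.8% in WT and 11.9% in Ring1AKO at 2000 UMIs, and 18.2% and 28.8% without thinning.

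The members were not uniform in the genes of the rule. In WT, 17 members had both Fscn1 and Ccl22, 6 had Fscn1 without Ccl22, and 18 had Ccl22 without Fscn1. In Ring1AKO these counts were 30, 12 and 13. Among WT members with Fscn1 the lowest value was 3 UMIs, so no WT member had 1 or 2, and 2 Ring1AKO members had 1 or 2. Members with at least 1 Fscn1 UMI are called Fscn1-positive below (23 in WT and 42 in Ring1AKO) and the others Fscn1-negative (18 and 13). This split was chosen after the values were seen. Close to the limit of the rule, 7 WT and 9 Ring1AKO members had 5 or 6 UMIs of Fscn1 and Ccl22 together, and 11 WT and 8 Ring1AKO cells that met the other limits had 3 or 4.

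**Figure D1:**
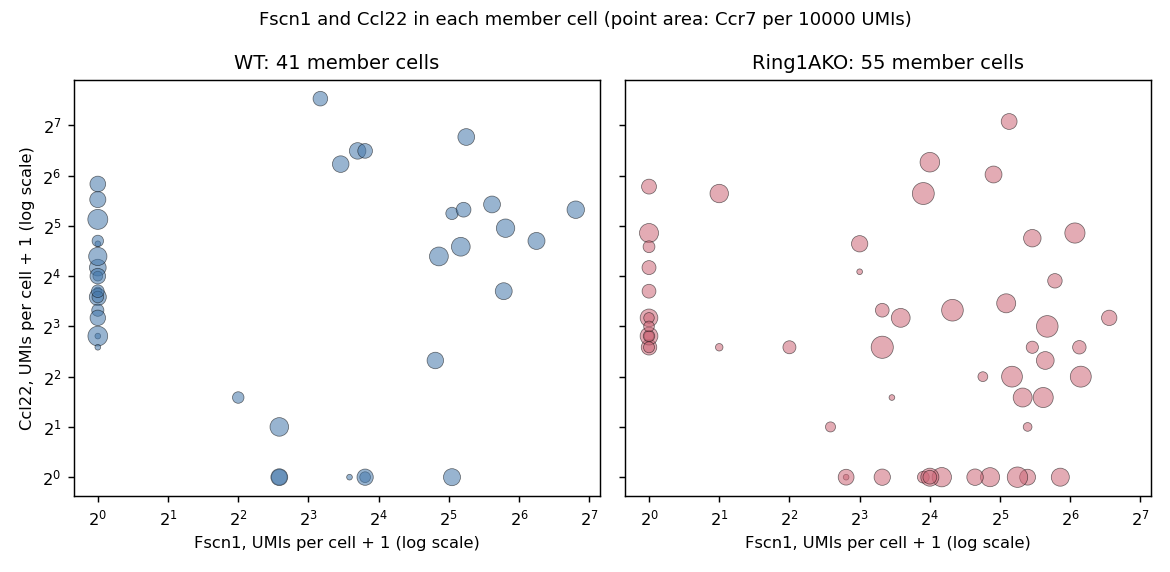
UMIs of Fscn1 (x axis) and Ccl22 (y axis), each plus 1 on a log scale, in every member cell of the WT library (left, 41 cells) and the Ring1AKO library (right, 55 cells), with point area following the Ccr7 share of the cell. The column of points at 1 on the x axis holds the 18 WT and 13 Ring1AKO members without Fscn1.

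The label described the Fscn1-positive cells as a set and described the Fscn1-negative cells only in part. An exception among the Fscn1-positive cells was a Ring1AKO cell of 20391 UMIs, with 6 of Fscn1 and none of Ccl22, Ccr7 or Tbc1d4. Of 2906 genes with at least 50 UMIs over the members, 261 (8.98%) were 2-fold or more higher in Fscn1-positive than in Fscn1-negative members of both libraries and 186 (6.40%) were 2-fold or more lower. Of the 22 genes in the maturation and migration list, 18 were on the higher side and 0 on the lower side. That list was drawn up with earlier results of these data known, and the split uses a gene of the rule. The count is therefore a description and no independent support for the label. Il12b, which encodes the p40 subunit shared by interleukin-12 and interleukin-23, was at 646 and 743 CPM in Fscn1-positive members of WT and Ring1AKO, and at 7.11 CPM and 0 in Fscn1-negative ones. Cacnb3, a regulatory subunit of voltage-gated calcium channels, was at 513 and 601 CPM against 24.9 and 13.9 CPM. Nudt17, a nudix-type hydrolase gene on chromosome 3 (bases 96706067 to 96708562 of GRCm38, minus strand), was at 249 and 221 CPM against 3.56 CPM and 0. These 3 genes were thus low or at 0 in members without Fscn1 in both libraries. Ccr7 was less uneven, at 3608.5 and 5153 CPM in Fscn1-positive members and 2180 and 2017 CPM in Fscn1-negative ones.

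The Fscn1-negative members carried some genes of cDC2 and monocyte-related cells. Of the cDC2 list 4 of 7 measured genes, and of the monocyte list 2 of 2, were 2-fold or more lower in Fscn1-positive members of both libraries (6.40% over all genes). Ccr2, also of the monocyte list, was not among them, with 5 UMIs in all WT members and 1 in all Ring1AKO members (153 CPM in cDC2 of either library). The lectin receptors Cd209a and Clec10a had no UMI in any of the 65 Fscn1-positive members, and in Fscn1-negative members Cd209a was at 196 and 116 CPM and Clec10a at 174 and 69.4 CPM. In cDC2, whose own rule used both genes, Clec10a was at 261 and 293 CPM. Il1b, an inflammatory cytokine, reached 7361 and 6786 CPM in Fscn1-negative members against 2022 and 1062 CPM in Fscn1-positive members, and was at 6564 and 7718 CPM in cDC2. Plac8, a gene of the monocyte marker list, was at 1487 and 1244 CPM against 205 and 151 CPM. The integrin subunit Itgam and the inflammasome sensor Nlrp3 were also on this side. The label was kept for the whole set, and Ring1AKO over WT values are given for the Fscn1-positive members as well, because these made up 56.1% of members in WT (39.8 to 71.5%) and 76.4% in Ring1AKO (63.0 to 86.8%).

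**Figure D2:**
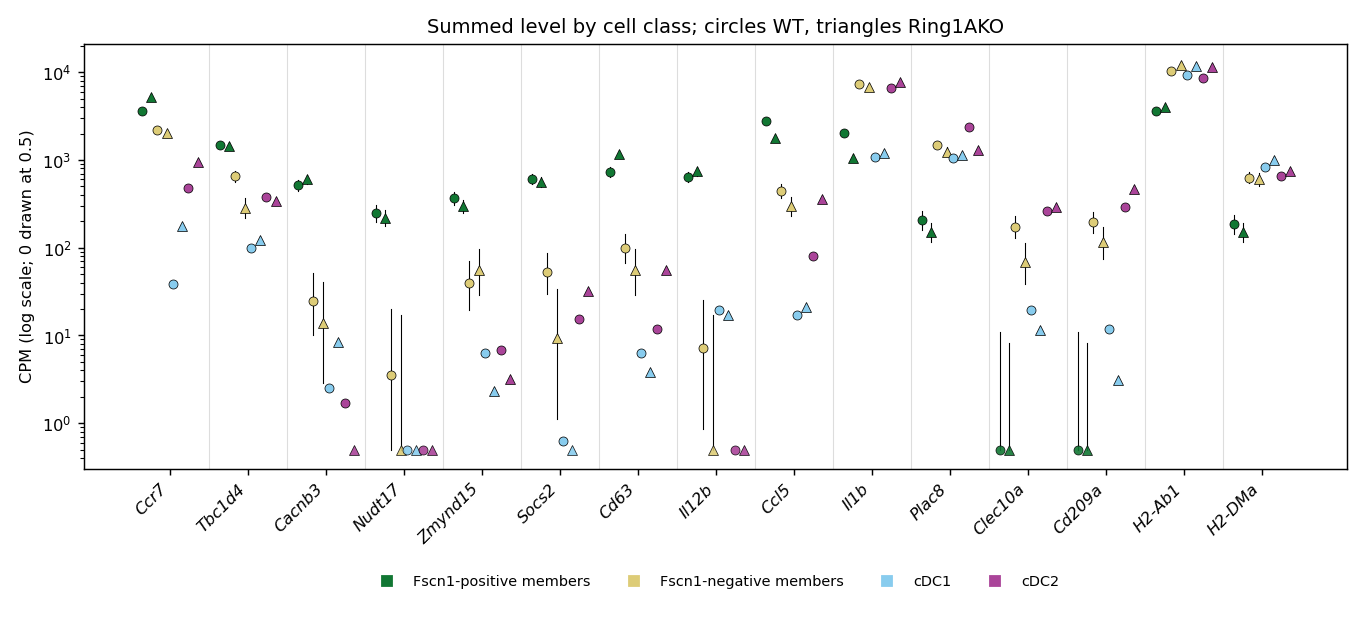
Summed level in CPM (log scale, 0 drawn at 0.5) of 15 genes in Fscn1-positive members, Fscn1-negative members, cDC1 and cDC2, with circles for WT, triangles for Ring1AKO and lines for exact Poisson 95% intervals of the member classes. Cacnb3, Nudt17 and Il12b stand high in Fscn1-positive members of both libraries, and Il1b, Plac8, Clec10a and Cd209a stand higher in Fscn1-negative members and cDC2.

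Members were next set against cDC1 (66 WT and 59 Ring1AKO cells with at least 2 UMIs of Xcr1 and Clec9a) and cDC2 (41 and 45 cells). Of 6927 genes with at least 50 UMIs over these classes, 222 (3.20%) were 2-fold or more higher in members than in cDC1 and in cDC2 of both libraries, and 178 (2.57%) were 2-fold or more lower in all 4 of these ratios. The maturation and migration list, drawn up with earlier results of these data known, had 21 of its 22 measured genes on the higher side, and the exception was the nuclear receptor gene Nr4a3, at 1318 and 1404 CPM in members and 838 and 1230 CPM in cDC2. Nudt17 had 85 UMIs in WT members and 98 in Ring1AKO members and none in any cDC1 or cDC2 cell. Against a floor of 3 UMIs for each class of each library it was at least 26.7-fold higher in members. Cacnb3 had 180 and 270 UMIs in members and between 0 and 11 UMIs in each of the cDC1 and cDC2 sums.

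Other genes with the highest ratios over both dendritic cell types in both libraries had a range of functions. Il12b was 18.2-fold over cDC1 in WT and 29.3-fold in Ring1AKO, and it had no UMI in cDC2. A single member held 36.8% of the Il12b UMIs in WT and 42.1% in Ring1AKO, and the gene was detected in 11 of 41 and 15 of 55 members. Zmynd15 was at 217 and 218 CPM in members and below 7 CPM in each cDC sum. The metalloproteinase gene Mmp25 was at 336 and 253 CPM in members and between 12.0 and 15.5 CPM in the cDC sums. The tetraspanin Cd63 was at 443 and 800 CPM, the calcium-binding protein gene Anxa3 at 163 and 273 CPM, and the transcription factor gene Tcf7, known best from T cells, at 56.6 and 108 CPM. Lad1, Slco5a1, Adcy6, Gm13546, Poglut1 and Dll4, a Notch ligand, completed the 15 genes named by rank, with Pakap under the gene ID ENSMUSG00000038729, since the files hold that symbol for several IDs. At the other end Ccr2, a chemokine receptor of monocytes and their progeny, had 5 and 1 UMIs in members but 60.6 and 65.9 CPM in cDC1 and 153 CPM in cDC2 of either library. Tmem156, Ndufaf6, Il16, Atp13a2 and Ncapd2 had no UMI in any member, and each stood between 6.20 and 32.2 CPM in the cDC sums. Against the floor of 3 UMIs, Tmem156 and Ndufaf6 were at least 2-fold lower in all 4 ratios, but the smallest bound was 1.77-fold for Il16 and Atp13a2 and 1.37-fold for Ncapd2, so their calls did not hold at that floor.

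The 14 genes of the NF-kappaB pathway list summed to 7354 and 7197 CPM in members, 1839 and 2156 CPM in cDC1 and 5144 and 6578 CPM in cDC2. Of 13 measured genes of that list, 2 (Relb and Birc2) were 2-fold or more higher in members than in cDC1 and cDC2 of both libraries (3.20% over all genes), and in Fscn1-positive members Nfkb2 passed this limit as well, with a background of 346 of 6723 genes (5.15%) for these cells. Relb, the partner of the Nfkb2 product, was at 412 and 359 CPM in members, 27.2 and 39.5 CPM in cDC1 and 110 CPM in cDC2 of both libraries. Nfkb2 was at 247 and 245 CPM in members, 36.0 and 71.3 CPM in cDC1 and 117 and 137 CPM in cDC2. Nfkbia, the inhibitor that NF-kappaB itself induces, was the most abundant gene of the list at 1832 and 2730 CPM in members, close to cDC2 (1457.5 and 2614.5 CPM) and above cDC1 (579 and 781 CPM). In RefSeq promoter windows (GRCm38.p6, 250 bases before to 50 after each start) an NF-kappaB-type string (GGG, any 2 bases, then TTTCC) was searched on both strands, so that it reads GGAAA, any 2 bases, then CCC on the other. It was in 1.63% of 32851 windows, and in 6 of 16 windows of the list (37.5%, from 12 matched genes of 14), which belonged to Nfkb2, Nfkbia, Rel and Tnfaip3. The windows of Nfkb2 (chr19:46304487-46304786, plus strand) and Nfkbia (chr12:55492598-55492897, minus strand) are printed 5′ to 3′ because they hold the pathway subunit and the inhibitor described above, with the match in capitals.
Nfkb2: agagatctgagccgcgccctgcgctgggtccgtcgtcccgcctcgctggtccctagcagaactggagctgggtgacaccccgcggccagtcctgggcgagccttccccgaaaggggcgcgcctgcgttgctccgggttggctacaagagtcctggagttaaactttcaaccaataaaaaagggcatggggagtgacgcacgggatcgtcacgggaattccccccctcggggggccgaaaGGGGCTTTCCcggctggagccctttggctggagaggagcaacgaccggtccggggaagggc
Nfkbia: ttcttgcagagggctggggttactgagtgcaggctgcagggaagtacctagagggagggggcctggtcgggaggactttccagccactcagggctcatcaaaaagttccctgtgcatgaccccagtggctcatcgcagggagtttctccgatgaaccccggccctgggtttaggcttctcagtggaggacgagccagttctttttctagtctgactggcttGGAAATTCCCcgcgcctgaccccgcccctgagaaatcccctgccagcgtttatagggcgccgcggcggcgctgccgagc
A match of letters is a description of the sequence, and no binding was measured. The windows of Fscn1, Ccl22 and the 10 matched genes of the 15 highest over cDC1 and cDC2 held no copy of this string.

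Among ligands shown to T cells, Cd40, Cd200 and Cd70 were 2-fold or more higher in members than in both dendritic cell types of both libraries, 3 of 15 measured genes of the list (3.20% over all genes). Cd40, the receptor for T cell help, was at 259 and 224 CPM in members against 13.9 and 22.5 CPM in cDC1 and 72.0 and 70.9 CPM in cDC2. Cd86 did not follow, at 304 and 283 CPM in members and 310 and 401 CPM in cDC2. The checkpoint ligand Cd274 was at 564 and 445 CPM in members, 105 and 66.7 CPM in cDC1 and 326 and 258 CPM in cDC2. The MHC class II genes lay on the other side in Fscn1-positive members. Of 12 measured genes, 1 was 2-fold or more lower in all members (2.57% over all genes), Marchf1, which encodes a ubiquitin ligase of class II molecules, and 6 (Ciita, H2-Ab1, H2-DMa, H2-DMb1, H2-Ob and Marchf1) were so in Fscn1-positive members against cDC1 and cDC2 of both libraries, with a background of 6.47%. H2-Ab1, a class II beta chain, was at 3620 and 4018 CPM in Fscn1-positive members and between 8676 and 11767 CPM in the cDC sums. Ciita, the class II transactivator, was at 41.5 and 15.8 CPM there, and at 214 and 157 CPM in cDC1. MHC class I genes showed no such pattern, with Nlrc5 and the proteasome activator Psme2, 2 of 12, 2-fold or more higher in members (3.20% over all genes) and 0 lower (2.57%).

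Of 8 measured chemokines, 1 was 2-fold or more higher in Fscn1-positive than in Fscn1-negative members of both libraries, near the share over all genes (8.98%), and 4 were lower (6.40% over all genes). Ccl5, a chemokine that attracts T cells, was at 2790 and 1799 CPM in Fscn1-positive members and 441 and 301 CPM in Fscn1-negative ones, but 1 WT cell held 77.9% of the UMIs in the WT Fscn1-positive sum. Another WT cell held 118 Ccl5 UMIs, most of the WT Fscn1-negative sum. Ccl17, the second ligand of Ccr4, was at 180 and 230 CPM in members and 2-fold or more above cDC1 and cDC2 in both libraries, but Fscn1-positive members were above Fscn1-negative ones in WT (288 and 49.8 CPM) and below them in Ring1AKO (149 and 398 CPM). In Ring1AKO 1 Fscn1-positive cell held 58 Ccl17 UMIs and 1 Fscn1-negative cell 44, and 1 WT Fscn1-negative cell held 13, each most of its sum. Cxcl9, Cxcl10, Ccl3 and Cxcl2 were the 4 on the lower side, each with over 50% of its UMIs in 1 cell in at least 1 library. Aldh1a2, which makes retinoic acid, had 30 and 17 UMIs, in 6 and 7 members. Of 9 survival genes, Bcl2l1 and Fas were 2-fold or more higher (3.20% over all genes), and Bcl2 lower (2.57%), in members than in both cDC types of both libraries. The actin list was abundant in every class, and 1 of its 14 genes, the myosin Myo1g, was 2-fold or more higher in members than in both cDC types (3.20% over all genes). Of the list of sensing and uptake genes, Tlr5, Tlr7, Tlr8 and Mrc1 had no UMI in any member. Of 5 measured genes of the retinoic acid and TGF-beta list, Aldh1a2 and Itgb8 were 2-fold or more above both cDC types (3.20% over all genes), and Itgb8 was found in 3 WT members and 1 Ring1AKO member.

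Members made up 0.683% of WT cells (0.490 to 0.925%) and 0.695% of Ring1AKO cells (0.524 to 0.903%), a log2 ratio of 0.02 (95% log-scale interval -0.56 to 0.61). These shares leave out 7 WT and 28 Ring1AKO cells that had at least 5 UMIs of Fscn1 and Ccl22 but failed the lineage limits. B and plasma cells were 33.6% of WT and 58.3% of Ring1AKO cells. Of the cells other than B and plasma cells, members were 1.03% in WT and 1.67% in Ring1AKO, a log2 ratio of 0.70 (0.12 to 1.28). Of all members, cDC1 and cDC2 together, they were 27.7% and 34.6%, a log2 ratio of 0.32 (-0.17 to 0.81). Fscn1-positive members were 15.5% and 26.4% of these dendritic cells (log2 ratio 0.77, 0.11 to 1.42), and Fscn1-negative members 12.2% and 8.18% (-0.57, -1.55 to 0.40). Fscn1 is a gene of the member rule, and the split by it was chosen after the values were seen. Both ratios of the split are thus descriptions and not counted as findings. The member share for all cells differed from those for the other denominators, and a share of sorted cells depends on every other population in the sort.

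Ring1AKO was then compared with WT in the summed members. Each sum had 1 UMI added before a log2 ratio was taken. Of the 2906 genes that reached 50 UMIs in members, 83 (2.86%) were 2-fold or more higher in Ring1AKO and 133 (4.58%) 2-fold or more lower, 7.43% in either direction, and the median log2 ratio was -0.04. In Fscn1-positive members 94 of 1938 genes (4.85%) were higher and 99 (5.11%) lower. The 10 highest ratios were those of Igfbp7, Cebpd, Gm42031, Adamdec1, Ctsl, Areg, Egr1, Hspb1, Apoe and Id3. A single Ring1AKO cell held most UMIs of 7 of these 10 genes. That cell had 20391 UMIs, 6 of Fscn1 and none of Ccl22 or Ccr7, and it held all UMIs of Col3a1, Col1a1, Dcn and Sparc, genes of collagen-making stromal cells, found in Ring1AKO members. The Col3a1 UMIs occurred in 1 of 55 Ring1AKO members and in 0 of 41 WT members. Igfbp7 and Cebpd had no UMI in WT members and were at least 24.7-fold and 22.2-fold higher in Ring1AKO, against a floor of 3 UMIs over the WT members, and at least 2.90-fold and 2.58-fold higher without this cell. Without it Egr1 went from a log2 ratio of 3.77 to 0.24, Adamdec1 from 4.84 to -0.63 (-6.93 to 3.21) and Id3 from 2.54 to 0.67, on 18, 3 and 35 UMIs left over both libraries. The value of Adamdec1 rests on 2 WT UMIs and 1 Ring1AKO UMI, under the floor of 3 in each library, and gives no direction. The count of genes on the higher side went from 83 to 69, of 2844 compared.

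Of the 10 genes, 7 had ratios of 2-fold or more without that cell, but only Gm42031 and Areg, 2 of the 7, still reached the minimum of 50 UMIs. Below it were Igfbp7, Cebpd and Hspb1 with 9, 8 and 48 UMIs left over both libraries, Ctsl, a lysosomal protease gene, with 25 (log2 ratio 2.95, 1.46 to 6.60, from 4.15 with the cell) and Apoe with 27 (1.10, -0.06 to 2.60, from 2.76). The cell held no UMI of Gm42031 or Areg and 3 of the 47 UMIs of Hspb1. Gm42031, a long non-coding RNA gene (chromosome 8, bases 85125872 to 85132289 of GRCm38, minus strand), had 4 UMIs in 4 of 41 WT members and 275 UMIs in 40 of 55 Ring1AKO members, a log2 ratio of 5.69 (4.64 to 7.89). The difference was not particular to members, since the log2 ratio was 4.12 in cDC1, 3.87 in cDC2 and 5.72 in T cells, and barcodes with fewer than 100 UMIs had 4.41 CPM in WT and 88.9 CPM in Ring1AKO. Areg, which encodes the epidermal growth factor receptor ligand amphiregulin, had 9 UMIs in 2 WT members and 162 UMIs in 11 Ring1AKO members (14.6 and 245 CPM, log2 ratio 3.93, 3.12 to 5.23), and its log2 ratio was 2.07 in cDC1 and 1.70 in cDC2. Hspb1, a small heat shock protein gene, had 4 and 47 UMIs, of which 1 cell held 51.1%.

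The 10 lowest ratios were those of C130026I21Rik, Ctla4, Ctla2b, Serpinb1a, Itgam, S100a9, Dnase1l3, Isg15, Gadd45g and Mefv. Of these, Ctla4, Ctla2b and S100a9 each had over 90% of their WT UMIs in 1 cell, and their log2 ratios without the top cell of each library were 1.71, -0.09 and 0.84. Ratios without top cells left out the gene's UMIs of those cells but kept their total UMIs. Ratios without the cell that held the collagen UMIs left out its total as well. These rest on 1 WT and 6 Ring1AKO UMIs for Ctla4, 6 and 6 for Ctla2b and 10 and 20 for S100a9, each under the minimum of 50 UMIs over both libraries. The WT cell with most Ctla4 had 38799 UMIs, no Fscn1 and 24 UMIs of Ccl22. Itgam and Mefv were at 156 and 164 CPM in Fscn1-negative and at 0 and 11.9 CPM in Fscn1-positive WT members, and at 37.0 and 46.3 CPM in Fscn1-negative Ring1AKO members, so both the share of Fscn1-negative cells and the level within them were lower in Ring1AKO. C130026I21Rik was lower in Ring1AKO in cDC1 and cDC2 as well, with log2 ratios of -2.36 and -1.09. Serpinb1a, an inhibitor of neutrophil proteases, was at 285 CPM (244 to 330) in WT members and 51.5 CPM (35.7 to 71.9) in Ring1AKO members, in 17 of 41 and 10 of 55 cells, and its log2 ratio was -2.43 in all members, -2.80 in Fscn1-positive members and -2.35 without the top cells.

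**Figure D3:**
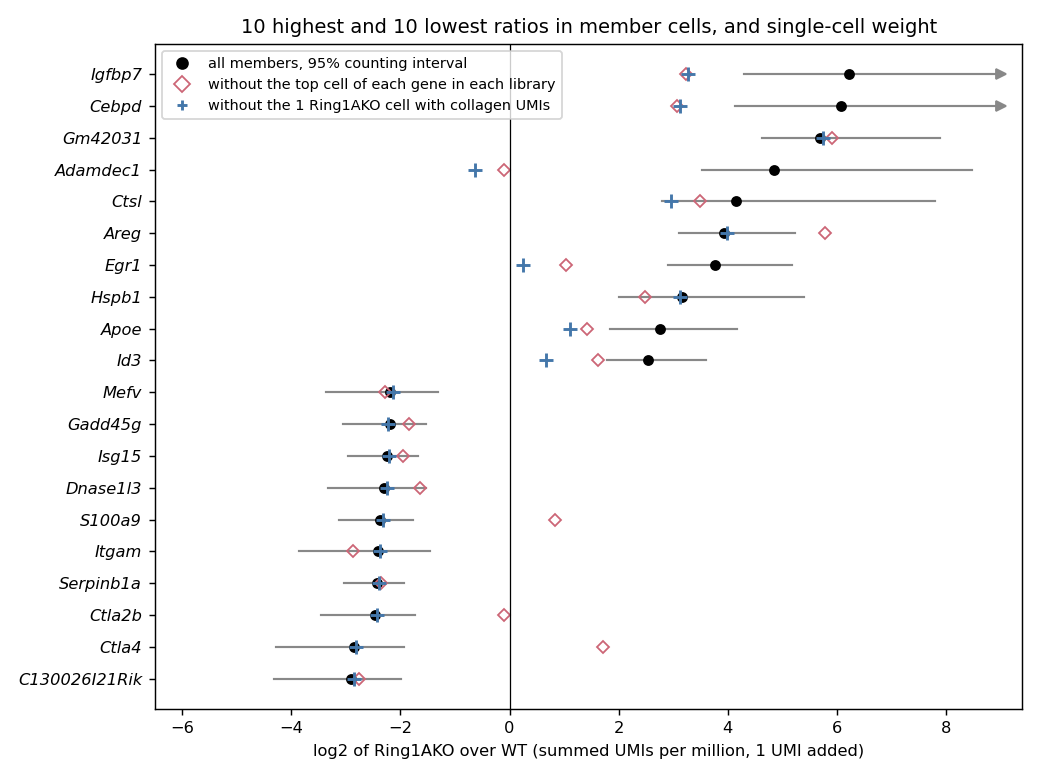
Log2 ratio of Ring1AKO over WT (x axis) for the 10 highest and 10 lowest ratios in members (y axis), with dots and lines for all members and their 95% counting interval, open diamonds without the top cell of each gene in each library, and crosses without the Ring1AKO cell that held the collagen UMIs. Without that cell Egr1 is at 0.24, Id3 at 0.67 and Adamdec1 at -0.63, the last on 3 UMIs and without a direction. Ctla4, Ctla2b and S100a9 are at 1.71, -0.09 and 0.84 without their top cells.

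Within Fscn1-positive members the lowest Ring1AKO over WT ratios were those of Ifi205, Serpinb1a, Isg15, Lgals3, Gadd45g, Bcl2l14, Bmt2, Itgb8, Sh3bgrl and Apol7c. Apol7c, an apolipoprotein L family gene, was the 1 member of the maturation list past 2-fold in all members, at 1213 CPM (1127 to 1303) in WT and 339 CPM (296 to 387) in Ring1AKO. In Fscn1-positive members it was at 2084.5 and 502 CPM (log2 ratio -2.05, -2.28 to -1.83), it was detected in 14 of 23 and 15 of 42 of these cells, and the ratio without the top cells was -2.15 over all members. Bcl2l14, a Bcl2 family gene, was at 445 and 90.0 CPM in Fscn1-positive cells (log2 ratio -2.28, -2.85 to -1.79). Lgals3, which encodes the lectin galectin-3, was at 2013 and 358 CPM, with 48.3% of the WT UMIs in 1 cell. In cDC1 and cDC2 the log2 ratios of Lgals3 were 0.28 and -0.16 and those of Bcl2l14 were 0.12 and 0.50. Whether the ratios differ between members and these cells was not tested.

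By list, most programmes of these cells had Ring1AKO over WT medians near that of all genes, and the medians of 11 of 17 lists changed sign under at least 1 alternative. The maturation and migration list had a median log2 ratio of 0.16 in all members and 0.02 in Fscn1-positive members, with 0 of 22 genes 2-fold or more higher (2.86% over all genes) and 1 lower (4.58%) in all members. In Fscn1-positive members Fabp5, a fatty acid binding protein gene, was higher at 1776 CPM in WT and 3948 CPM in Ring1AKO, and Marcksl1, an actin regulator, at 863 and 1871 CPM. These were the 2 of 22 genes that were 2-fold or more higher there (4.85% over all genes), and 1 was lower (5.11%). The medians were -0.12 for costimulation and checkpoint ligands, -0.05 for MHC class II, 0.18 for MHC class I, -0.07 for the NF-kappaB pathway, 0.17 for actin genes and 0.05 for survival genes. In these 6 lists, with 13, 11, 12, 13, 14 and 8 measured genes, 0 genes were 2-fold or more higher (2.86% over all genes). Cd70 (67.9 and 30.3 CPM, log2 ratio -0.40 without its top cells), Havcr2 and Ciita (112 and 30.3 CPM) were the genes of these lists on the lower side (4.58% over all genes). Chemokines had a median of -0.18 with 0 of 8 past 2-fold (7.43% in either direction over all genes). Cytokines had -0.24 with Il6, 1 of 5 measured genes, lower (4.58%), at 35 and 16 UMIs.

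Of the 15 genes of the immediate-early and heat shock list, 14 had a log2 ratio above 0, the median was 0.71 (-0.04 over all genes), and Ier2 and Egr1, 2 of 15, were 2-fold or more higher (2.86% over all genes). In Fscn1-positive members the median was 0.84, and Fos, Fosb, Jund, Ier2 and Egr1, 5 of 15, were 2-fold or more higher (4.85% over all genes). The collagen-holding cell was one of these members, and without it the median was 0.70 over 14 genes and Ier2 alone was 2-fold or more higher (3.80% over all genes), at 1.31, with Fos at 0.96, Fosb at 0.89 and Jund at 0.74. Atf3, Jun and Dnajb1 were then below 0, at -0.20, -0.09 and -0.20. Fos, a subunit of the AP-1 transcription factor, was at 403 CPM in WT and 891 CPM in Ring1AKO in Fscn1-positive members with that cell kept (log2 ratio 1.14). Hsp90aa1, a chaperone gene, was at 543 and 1084 CPM in all members. Without the collagen-holding cell the list's median over all members was 0.52, Ier2 was at 0.86 and Egr1 at 0.24, so neither was 2-fold higher. Atf3 and Dnajb1 were then below 0 in all members, at -0.64 and -0.38. Genes of this kind also respond to tissue digestion and sorting, and the handling of the libraries cannot be told apart from genotype.

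Of 9 measured genes of the interferon-gamma list, 1 was 2-fold or more higher in Ring1AKO (2.86% over all genes) and 1 lower (4.58%), 7 had a log2 ratio below 0 and the median was -0.80, or -0.47 without the top cell of each gene. Irf1, a transcription factor gene of this response, was at 430 and 247 CPM and Gbp2 at 147 and 83.3 CPM. Ciita was the gene past 2-fold on the lower side, and Socs1, an inhibitor of this signalling, on the higher side at 48.5 and 112 CPM. In Fscn1-positive members 6 genes were measured, 1 was higher (4.85% over all genes) and 0 lower (5.11%), and the median was -0.24. Only 3 genes of the type I interferon list reached 50 UMIs (Isg15, Bst2 and Oasl1), with a median of -0.74 and Isg15 alone 2-fold or more lower (4.58% over all genes), and 1 WT cell held 39.5% of the WT Isg15 UMIs. Without the top cell of each gene that median was -1.68.

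**Figure D4:**
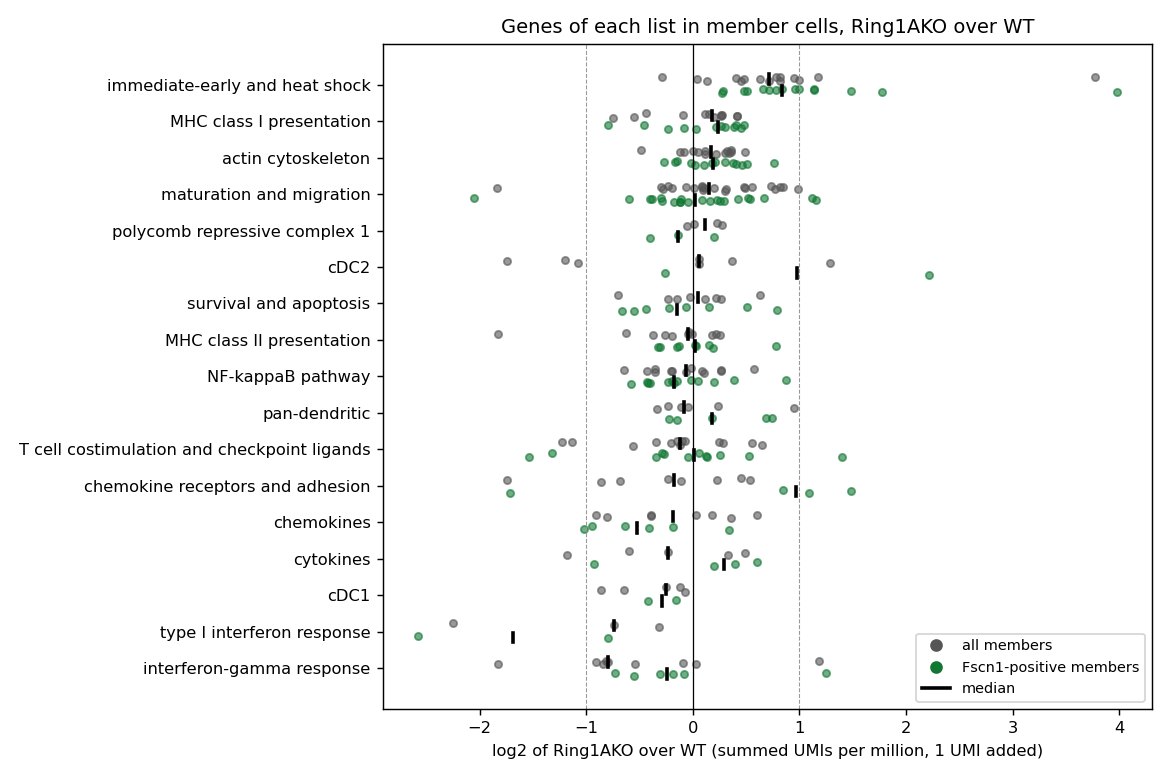
Log2 ratio of Ring1AKO over WT (x axis) of every measured gene of each list (y axis), in all members (grey) and in Fscn1-positive members (green), with black bars at the medians and dashed lines at 2-fold. With the collagen-holding cell kept, as drawn, the immediate-early and heat shock genes lie to the right of 0 but for 1 gene. The interferon lists have medians of -0.80 and -0.74 in all members.

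Of 7 measured cDC2 genes, Zeb2, Cd209a and Clec10a were 2-fold or more lower in Ring1AKO members (4.58% over all genes) and Klf4, a transcription factor gene, 2-fold or more higher (2.86%), at 87.3 and 215 CPM. Cd209a and Clec10a were found in Fscn1-negative members alone (18 in WT and 13 in Ring1AKO), and their levels within those cells were lower in Ring1AKO too, from 196 to 116 CPM and from 174 to 69.4 CPM. Klf4 was higher in Fscn1-positive members too, at 53.4 and 259 CPM. All 5 measured cDC1 genes were below 0 (median -0.26, none past 2-fold), the 6 pan-dendritic genes had a median of -0.08 with none past 2-fold, and the 8 measured chemokine receptor and adhesion genes had a median of -0.18. Over all genes 7.43% were past 2-fold in either direction. Of the Polycomb repressive complex 1 genes, to which Ring1A belongs, all 19 had UMIs in members and 4 reached 50, with a median of 0.12 and none past 2-fold. Pcgf5, a subunit gene of this complex, was at 296 and 357 CPM in members, 41.1 and 27.9 CPM in cDC1 and 89.2 and 56.4 CPM in cDC2, 2-fold or more higher in all 4 ratios. Rnf2, which encodes the paralogue Ring1B, had 8 and 16 UMIs.

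Markers of other cells differed in level among members. The 5 T cell markers summed to 11.3 CPM in WT members and 36.3 CPM in Ring1AKO members, against 2935 and 3650.5 CPM in T cells. The 3 plasma cell genes summed to 5722 and 3593 CPM in members and 5081 and 4783 CPM in T cells, with 62.7% of the WT Igkc UMIs in 1 cell. If all Igha in members came from free RNA, that RNA made up 3.15% of their UMIs in WT and 3.11% in Ring1AKO. Neutrophil markers summed to 293 and 60.6 CPM, with S100a9 the most abundant and 1 WT cell holding 91.3% of it. The 3 stromal markers summed to 17.8 and 84.8 CPM. Macrophage markers summed to 45.3 and 24.2 CPM, with Mrc1 and Cd163 at 0, and monocyte markers to 1058 and 895 CPM, most of it Plac8, above the 918 and 674 CPM of T cells and below the 3923 and 2863 CPM of cDC2. Fscn1-negative members held 2041 and 2179 CPM of monocyte markers, close to the 1968 and 1976 CPM of cDC1, and Fscn1-positive members 237 and 270.1 CPM. B cell markers summed to 54.98 and 48.5 CPM, NK and ILC markers to 191 and 115 CPM (Il7r the most abundant, Klrb1c and Ncr1 at 0), plasmacytoid dendritic markers to 50.1 and 115 CPM (Tcf4, with Siglech and Cox6a2 at 0), mast cell markers to 0 and 4.54 CPM and epithelial markers to 24.2 and 63.6 CPM (Epcam). With the free RNA profile subtracted at the share that Igha gives, the counts of 83 and 133 genes were 92 and 140. Doublets were limited only by the lineage limits of the rule, with no caller. Leaving out members with UMIs of other lineages' genes kept 40 of 41 WT and 54 of 55 Ring1AKO members and moved the same counts to 84 and 131. It thus covers few cells, and the higher count was 69 without the collagen-holding cell.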

How the data were processed

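The authors deposited UMI counts per gene and barcode for 1 library of WT and 1 of Ring1AKO colonic CD45+ cells (10x 3′ chemistry), unfiltered. The submitters' processing notes name Cell Ranger 6.0.2, Seurat and mm39, the study's methods name an earlier Cell Ranger and mm10, and the matrix header names Cell Ranger 4, so the build behind the counts was not settled. Coordinates are those of GRCm38 by gene ID.

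Cells were filtered as in the report, and UMIs were summed over members, cDC1, cDC2 and T cells of each library. Ratios used genes with at least 50 UMIs over the compared cells, 1 UMI added to each sum, and a limit of 2-fold. Intervals are exact Poisson, Clopper-Pearson or conditional binomial 95% intervals, and a share ratio has a log-scale interval. With 1 library per group there was no test. Named genes were Ring1, the most abundant and past-limit genes of 31 lists, the 10 highest and 10 lowest ratios of Ring1AKO over WT, and the 15 highest and 10 lowest of members over both cDC types, without rule, immunoglobulin, T cell receptor, mitochondrial and Y-linked genes and Xist. Lists of the same kind for Fscn1-positive members were added later. Members and lists were chosen with earlier results of these data known. Alternatives changed the member rule, the cell filter, scaling, minimum count, fold limit, thinning and free RNA. Python 3.11.15, numpy 2.4.6, scipy 1.17.1, pandas 2.3.3 and matplotlib 3.10.9 were used. The ratios were tested on simulated Poisson sums. Differences between cells were not simulated, so that test does not cover genes held by few cells. Results for some genes of the lists are not reported here.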

Additional observations from a re-analysis of the deposited data

Results flagged for a closer look

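Cells with at least 5 UMIs of Fscn1 and Ccl22 that the lineage limits left out lie outside the comparisons, and they numbered 7 in WT and 28 in Ring1AKO. A Ccr7 UMI was present in 5 of the 7 and in 24 of the 28. Cd79a above 1 UMI left out 4 and 19 of them, and Cd3e 3 and 8, with some cells failing several limits. Their median depth was 13652 UMIs in WT and 21978 UMIs in Ring1AKO, against 12825 and 11792 UMIs in members. Whether they are doublets was not tested.

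Ctla4 had a Ring1AKO over WT log2 ratio of -2.86 in members and ratios of the opposite sign in cDC1 (0.55) and cDC2 (3.50). A single cell held 98.3% of its UMIs in WT members. Cd14, a co-receptor for bacterial lipopolysaccharide, had a log2 ratio of -1.59 in members, with 89 UMIs in 8 WT cells and 31 UMIs in 9 Ring1AKO cells, and ratios of 0.97 in cDC1 and 0.54 in cDC2. Neither difference between cell classes was tested.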

How the results depend on the processing

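No paired analysis was possible because each genotype had 1 library, and for the same reason no replicate could be left out. Of 216 genes past 2-fold in Ring1AKO over WT, 5 had the opposite sign without the top cell of each gene (Ctla4 1.71 and S100a9 0.84 in place of -2.86 and -2.37), 2 without the collagen-holding cell (Adamdec1 -0.63 in place of 4.84) and 11 in Fscn1-positive members. In each of these 3 settings 0 of the genes that turned had 50 UMIs left, and Ctla4 rested on 1 and 6 UMIs and Adamdec1 on 2 and 1. Of the values that answer a comparison 288 were counted as unchanged and 40 were not. Shares and share ratios had to stay within the counting error of the value reported, and counts of genes within 1.5 times of it. The limit for list medians came from intervals of single genes and was not a counting error of the median. Medians that changed sign could thus be counted as unchanged. The cDC2 median, for example, went from 0.06 to -0.60 with a member limit of 1 in 1000 UMIs and was counted so. The alternatives that kept Fscn1-positive members only, left out top cells or the collagen-holding cell, or set a floor of 3 UMIs were chosen after seeing the data. Counts of genes 2-fold or more higher and lower in Ring1AKO (83 and 133) became 240 and 383 with a minimum of 20 UMIs, 1444 and 2075 with a minimum of 1 UMI, and 20 and 34 at a 3-fold limit. The lower count became 88 with a member limit of 1 in 1000 UMIs (27 WT members) and 219 as a mean over cells. With the median ratio set to 0 the counts were 97 and 116. Counts over cDC1 and cDC2 (222 and 178) became 107 and 33 at 3-fold and 346 and 435 in Fscn1-positive members, the higher one 379 with a minimum of 1 UMI, and the lower one 453 at 1 in 1000 UMIs and 281 as a mean over cells. The member share ratio of 0.02 became 0.70 among cells other than B and plasma cells.

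List medians of Ring1AKO over WT moved as follows, and 11 of 17 changed sign under at least 1 alternative (costimulation, MHC class II, cytokines, chemokines, chemokine receptors, NF-kappaB, cDC1, cDC2, pan-dendritic, survival and Polycomb). With at least 10 UMIs of Fscn1 and Ccl22, maturation was 0.37 and cDC1 -0.86. At 1 in 1000 UMIs, cytokines were 0.19 and immediate-early genes 0.51. Without members carrying other lineages' genes (40 WT and 54 Ring1AKO members kept), chemokines were 0.20. Without the deepest 10% of members, maturation was 0.54, MHC class I 0.45, chemokines -0.85, chemokine receptors -0.81, cDC2 -0.78 and immediate-early genes 0.43. In Fscn1-positive members, cytokines were 0.29, chemokines -0.52 and chemokine receptors 0.96, and without the collagen-holding cell as well 0.36, -0.51 and 0.79, with interferon-gamma genes at -0.19. Immediate-early genes were 0.49 as a mean over cells and 0.52 without the collagen-holding cell, and type I interferon genes were -1.68 without top cells. The cause of these moves was not tested. Tbc1d4 was found in 92.7% of WT members without thinning, and at 2000 UMIs Ccr7 and Tbc1d4 were found in 86.5% and 71.2% of Ring1AKO members. Counts of 41 and 55 cells limit every ratio.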
